A study of Mus musculus with 18 samples.

Results

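The data described here are ribosome footprints of cortical neurons that carried MTOR with the amino acid substitution C1483Y, set against neurons that carried wild-type MTOR (WT). Of the 24035 genes named in each file, 5400 were used, from the top of the gene order down to Cyb5rl, and 6 of the 18 samples entered, 3 C1483Y and 3 WT footprint libraries. The limit at Cyb5rl was set because the values of C1483Y replicate 3 stand beside the wrong gene names further down. A count above 0 in any of the 6 libraries was found for 2541 genes, and in all 6 for 664. Both groups came from C57BL/6 mouse embryos that received an MTOR construct by in utero electroporation on embryonic day 14, and neurons that had taken it up were isolated by flow cytometry on embryonic day 18. The WT neurons therefore carried an introduced MTOR construct too, and the sources used here name neither the promoter of the constructs nor any pooling of embryos. The labels do not say whether replicates came from separate animals, so p-values measure only the spread between these libraries.

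MTOR encodes a kinase that works in a pair of protein complexes and responds to nutrients and growth factors. The first complex raises protein synthesis by phosphorylating translation factors, and its activating mutations in developing cortex are known from focal malformations with epilepsy. A ribosome footprint is the stretch of mRNA that a ribosome shields from nuclease, so the footprints on a gene reflect both how much mRNA there is and how densely ribosomes occupy it. Mtor lies below Cyb5rl in the gene order, so the check of the targeted gene falls outside these rows. The ribosomal protein genes, the best-known translational targets of mTOR, carry names that fall outside these rows too.

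mTOR-sensitive mRNAs are known for starting with a C followed by a run of pyrimidines. The annotated starts of 4 genes that return in the results are shown for that reason, each from 10 bases before to 20 bases from the start, taken from RefSeq (GRCm38.p6), with the first 5 transcribed bases in capitals. Cct6a and Cct8 encode subunits of the chaperonin CCT, Bag6 a chaperone, and Atp5d a subunit of ATP synthase.
Bag6, chr17:35135203-35135232, plus strand: tcacgcaggcGCAGTgcggtcccccgggcg
Cct6a, chr5:129787346-129787375, plus strand: ggcacgccggGGGCGggccgggtgcgtaag
Cct8, chr16:87495850-87495879, minus strand: ccgaggcccaTTCCCagcaggcagtgcgcg
Atp5d, chr10:80142305-80142334, plus strand: catcgcgcagCCTTCggagaatcctgtgcg
Only the Atp5d start among these 4 opens with C and has C or T at all of its first 5 bases. A further annotated start of Atp5d, chr10:80142265-80142294 on the plus strand, reads caagggaaagTATACctcccagaatgctca and does not open that way. Acy1, Cdkal1, Atp6v0b and Adk, described below with all C1483Y libraries above WT, have annotated starts that do not open that way. Over all 32851 annotated RefSeq starts, 823 (2.51%) do open that way. An entry was found for 1092 of the 1379 genes tested below (79.2%), under the 80% needed, so genes with and without such a start were not compared. A match is a description of the annotated letters.

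The 5400 genes held 4430537, 1929452 and 4378799 counts in C1483Y replicates 1 to 3, and 1339968, 2206837 and 6742644 counts in WT replicates 1 to 3. All values of WT replicate 3 were multiples of 3, and 98.3% of the values above 0 in C1483Y replicate 3 were multiples of 4, so the depth of both may be overstated. Levels are given as CPM, in which each library's counts are scaled to the same total over these rows. Among the 1000 most abundant of these genes, C1483Y libraries had a 0 for 155, 47 and 79, and WT libraries for 182, 132 and 37. Across genes with a mean of at least 50 CPM, Pearson correlations of log2 levels were 0.278 to 0.343 within C1483Y, 0.329 to 0.360 within WT and 0.265 to 0.447 between the groups, so these ranges overlapped.

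The match of C1483Y replicate 3 to its gene names was examined in windows of 100 rows with at least 20 genes above 0. In 39 of 39 windows up to Cyb5rl, the values matched the mean of the other 8 footprint libraries best without an offset, with a median r of 0.810. None of the next 8 windows did (0 of 8), and their r without an offset ranged from -0.06 to 0.478.

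**Figure D1:**
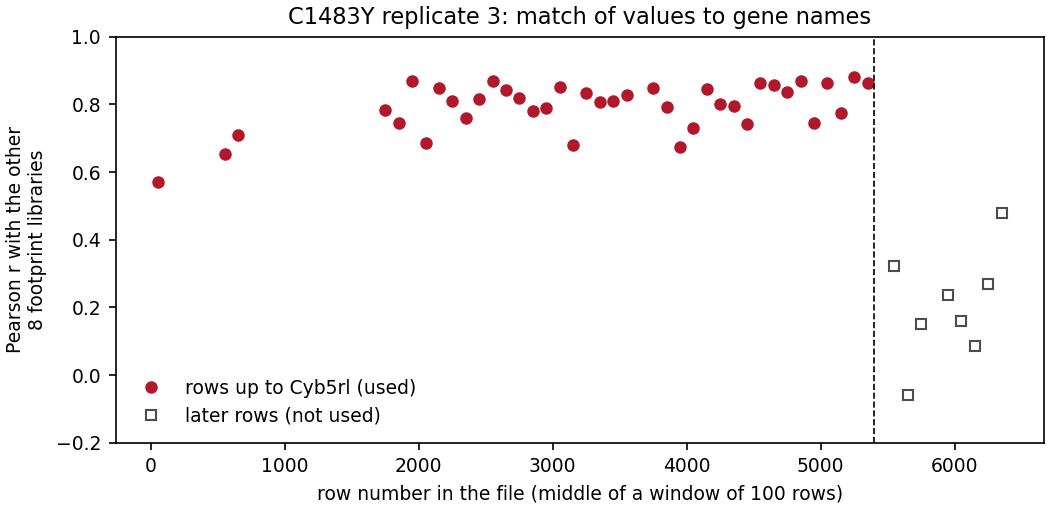
Pearson correlation of C1483Y replicate 3 with the mean of the other 8 footprint libraries, by row number in the file, in windows of 100 rows. The 39 windows up to Cyb5rl (filled circles) lie between 0.572 and 0.880, and the 8 later windows (open squares) lie at or below 0.478.

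After genes with low counts were left out, 1379 genes were tested with edgeR's quasi-likelihood test. At an adjusted p under 0.05, 0 genes passed (0.00%), and the smallest adjusted p was 0.997. At an unadjusted p under 0.05, 12 genes passed (0.870%), 4 higher and 8 lower in C1483Y. DESeq2's Wald test on the same genes called 6 (0.480% of the 1249 to which it gave an adjusted p), described further on, and had 49 at an unadjusted p under 0.05. limma-trend called 0, with 28 at an unadjusted p under 0.05. No gene is therefore said to have risen or fallen, and the values are given library by library.

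The spread between libraries depended on the level of a gene. The standard error (SE) of an edgeR log2 fold change was taken as its absolute value divided by the square root of the test's F statistic. For genes under 100 CPM the median standard error of the log2 fold change was 3.76, and 88.5% had a 0 in at least 1 library. Between 100 and 1000 CPM the median standard error was 3.28 and 57.0% had a 0. At 1000 CPM or more, 216 genes had a median standard error of 0.895 and 1.39% had a 0. All 31 genes with a standard error under 0.5 were in that last group.

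All 3 C1483Y libraries lay above all 3 WT libraries for 61 of the 1379 genes (4.42%), and below them for 38 (2.76%), 99 in all (7.18%). Among the 216 abundant genes these counts were 10 (4.63%) and 9 (4.17%), 19 in all (8.80%), close to the shares over all genes tested. With 3 libraries a group, labels given at random separate the groups of a gene with a probability of 0.1, ties aside. Neither share in all exceeded that. The balance depended on the scaling, with 56 higher and 44 lower over all genes with TMM factors and 49 and 48 with DESeq2's size factors, and among the abundant genes 6 and 12 with TMM factors and 3 and 8 with DESeq2's. Because the abundant genes have the smallest error, those 19 are described first. Bdh1, Atp5c1, Ap2a2, Ccar2, Cct2 and Clcn4-2 among them fall outside the naming rule and were chosen after their values were seen. For all 19, the mRNA libraries of C1483Y and WT overlapped.

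**Figure D2:**
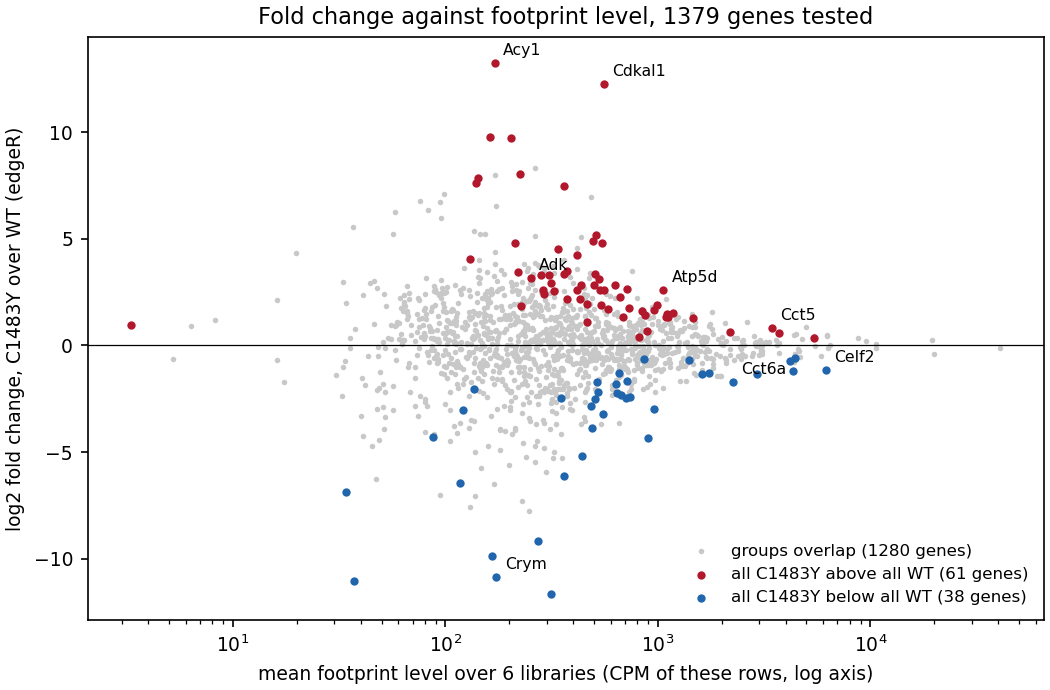
Log2 fold change of C1483Y over WT from edgeR against the mean footprint level over the 6 libraries (log axis), for the 1379 genes tested. The fold changes narrow as the level rises. The 61 genes with all C1483Y libraries above WT and the 38 with all below lie mostly between 100 and 1000 CPM (50 and 26). Of all 1379 genes tested, 989 lie in that range. Under 100 CPM there are 1 and 3 such genes, and at 1000 CPM or more 10 and 9.

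Among the abundant genes that were lower in C1483Y, Celf2 had the smallest unadjusted p. It encodes an RNA-binding protein that acts in splicing and mRNA stability. Celf2 had 4816, 3599 and 3030 CPM in C1483Y libraries, against 12849, 6112 and 6686 CPM in WT libraries. The highest C1483Y library was below the lowest WT library, and WT replicate 1 stood far above the other two WT libraries. The log2 fold change was -1.16 (SE 0.38, edgeR adjusted p = 0.997). With DESeq2's size factors in place of totals, the groups of Celf2 overlapped. In L2427P neurons, which carried another MTOR substitution, Celf2 footprints were at 4877, 5270 and 4801 CPM. Celf2 mRNA was at 924, 1483.4 and 1770 CPM in C1483Y and at 593, 1305 and 1422 CPM in WT, where the groups overlapped.

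Bag6, a chaperone that takes hydrophobic and tail-anchored proteins to the membrane or to degradation, had 1641, 2724 and 3489 CPM in C1483Y libraries and 7191, 4598 and 6199 CPM in WT libraries. The means were 2618 ± 928 CPM in C1483Y and 5996 ± 1309 CPM in WT (SD, n = 3 each). Its log2 fold change was -1.20 (SE 0.46, edgeR adjusted p = 0.997), and the groups did not overlap under totals, TMM factors or DESeq2's size factors. The L2427P libraries had 4602, 4979 and 4695 CPM. Bag6 mRNA overlapped, at 1703, 1045 and 3531 CPM in C1483Y and 888, 1805 and 2243 CPM in WT.

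The chaperonin CCT is a double ring of different subunits that folds actin and tubulin. Of its 8 listed genes, 7 were tested; 3 were lower in C1483Y with groups that did not overlap (2.76% of all genes tested were), 1 was higher (4.42% of all) and 3 overlapped. Cct6a had 84.0, 1663 and 1391 CPM in C1483Y libraries, against 4408, 3906 and 2082 CPM in WT libraries. Cct8 had 1724, 1996 and 1315 CPM in C1483Y libraries and 7529, 2866 and 2147 CPM in WT libraries. Cct2 had 2.48, 1241 and 1532 CPM in C1483Y libraries, against 2023, 1712 and 3188 CPM in WT libraries. C1483Y replicate 1 was near 0 for Cct2 and low for Cct6a, and WT replicate 1 stood out for Cct8.

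Cct5, in the opposite direction, had 5941, 3670 and 3543 CPM in C1483Y libraries and 2066, 2405 and 3030 CPM in WT libraries. Its log2 fold change was 0.81 (SE 0.52), against -1.73 (SE 0.71) for Cct6a and -1.32 (SE 0.59) for Cct8, each with an edgeR adjusted p of 0.997. With DESeq2's size factors the groups of Cct5 and Cct8 overlapped, while those of Cct6a and Cct2 did not. The remaining tested subunits had log2 fold changes of -0.26 for Cct3, 0.02 for Cct7 and 0.13 for Cct4, and their groups overlapped. Summed over the list, footprints were at 18246, 13646 and 16032 CPM in C1483Y and 26077, 16762 and 19344 CPM in WT, so the sums overlapped. The median log2 fold change of the list was -0.26, beside 0.12 over all genes tested.

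**Figure D3:**
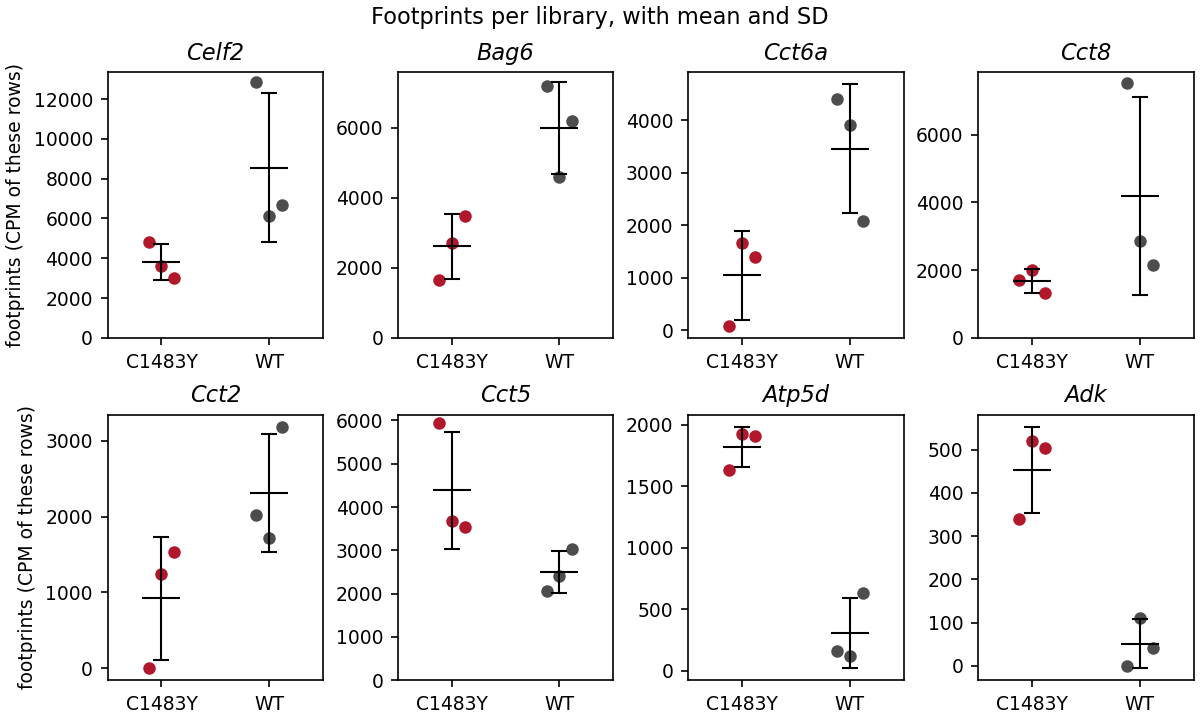
Footprint level of 8 genes in each library, in CPM of these rows on linear axes, with C1483Y at the left and WT at the right of each panel; the bars are the mean and SD of 3 libraries. Celf2, Bag6, Cct6a, Cct8 and Cct2 have all C1483Y points below all WT points, and Cct5, Atp5d and Adk have all above.

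The actins, which CCT folds, did not follow a common direction. Actb, beta-actin and the gene with the highest mean level, had 31338, 53742 and 33434 CPM in C1483Y libraries and 43927, 43979 and 38865 CPM in WT libraries. Its log2 fold change was -0.10 (SE 0.16), with overlapping groups. Actg1, gamma-actin, had a log2 fold change of 0.26 (SE 0.22), and Cfl1, the actin-severing protein cofilin, 0.19 (SE 0.31). Of 37 tested genes of the actin cytoskeleton, 2 were higher without overlap, Cnn3 and Ablim1, and 1 was lower, Coro1b. Over all genes tested, 4.42% were higher and 2.76% lower without overlap. Cnn3, an actin-binding calponin, had 4800, 4914 and 3714 CPM in C1483Y libraries against 2966, 3391 and 2468 CPM in WT libraries.

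Subunits of ATP synthase, the rotary enzyme of the mitochondrial inner membrane, stood on both sides. Atp5d, the delta subunit of its central stalk, had 1631, 1923 and 1906 CPM in C1483Y libraries, against 159, 122 and 631 CPM in WT libraries. The 3 C1483Y values lay close together and the groups stayed apart under all 3 scalings; the log2 fold change was 2.58 (SE 1.42, edgeR adjusted p = 0.997). In L2427P libraries Atp5d was at 240, 1867 and 791 CPM, which spans both groups. Its mRNA was at 305, 588 and 0 CPM in C1483Y and at 0, 643 and 433 CPM in WT.

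Atp5c1, the gamma subunit, had 1731, 1235 and 1826 CPM in C1483Y libraries and 847, 355 and 686 CPM in WT libraries. Atp5o, the subunit that ties the peripheral stalk to the catalytic head, was on the other side. It had 857, 644 and 1511 CPM in C1483Y libraries and 2957, 2330 and 2180 CPM in WT libraries. Atp5b, the catalytic beta subunit and the most abundant of the list, had 6304, 7943 and 5151 CPM in C1483Y and 6185, 5657 and 7459 CPM in WT. Of 31 tested genes for ATP synthase and cytochrome c oxidase, 3 were higher without overlap (Cox17 is the third), where 4.42% of all genes were, and 1 was lower, where 2.76% of all were.

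Ap2b1 and Ap2a2 encode large subunits of AP-2, the adaptor that links clathrin to cargo at the plasma membrane, and also differed in direction. Ap2a1, another large-subunit gene of the list, was not among the genes without overlap. Ap2b1 had 2557, 3498 and 3477 CPM in C1483Y libraries, against 5746, 6036 and 3828 CPM in WT libraries. Ap2a2 had 1719, 1083 and 1890 CPM in C1483Y libraries, against 0, 1049 and 836 CPM in WT libraries, so its lowest C1483Y library was only just above its highest WT library. With DESeq2's size factors both genes had overlapping groups.

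Aplp1, of the amyloid precursor family, had 3098, 3680 and 3814 CPM in C1483Y libraries and 4968, 6809 and 4179 CPM in WT libraries. Clcn4-2, a chloride and proton exchanger, had 896, 1378 and 977 CPM in C1483Y and 1911, 1842 and 1385 CPM in WT. Ckb, the brain creatine kinase, had 7884, 5233 and 5185 CPM in C1483Y libraries, against 4814, 5135 and 4393 CPM in WT libraries, a gap of less than the spread within either group.

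Bdh1, which interconverts ketone bodies, had 2469, 1943 and 1807 CPM in C1483Y libraries and 196, 622 and 1739 CPM in WT libraries. Clip2, a microtubule linker protein, had 1269, 1987 and 1977 CPM in C1483Y libraries and 87.3, 532 and 1184 CPM in WT libraries. Ccar2, an inhibitor of the deacetylase SIRT1, had 2635, 3145 and 2176 CPM in C1483Y and 2039, 1713 and 1406 CPM in WT. Of these only Clip2 kept groups that did not overlap under all 3 scalings, as did Atp5d and Atp6v0d1 among the higher genes and Bag6, Cct6a, Atp5o and Cct2 among the lower ones.

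**Figure D4:**
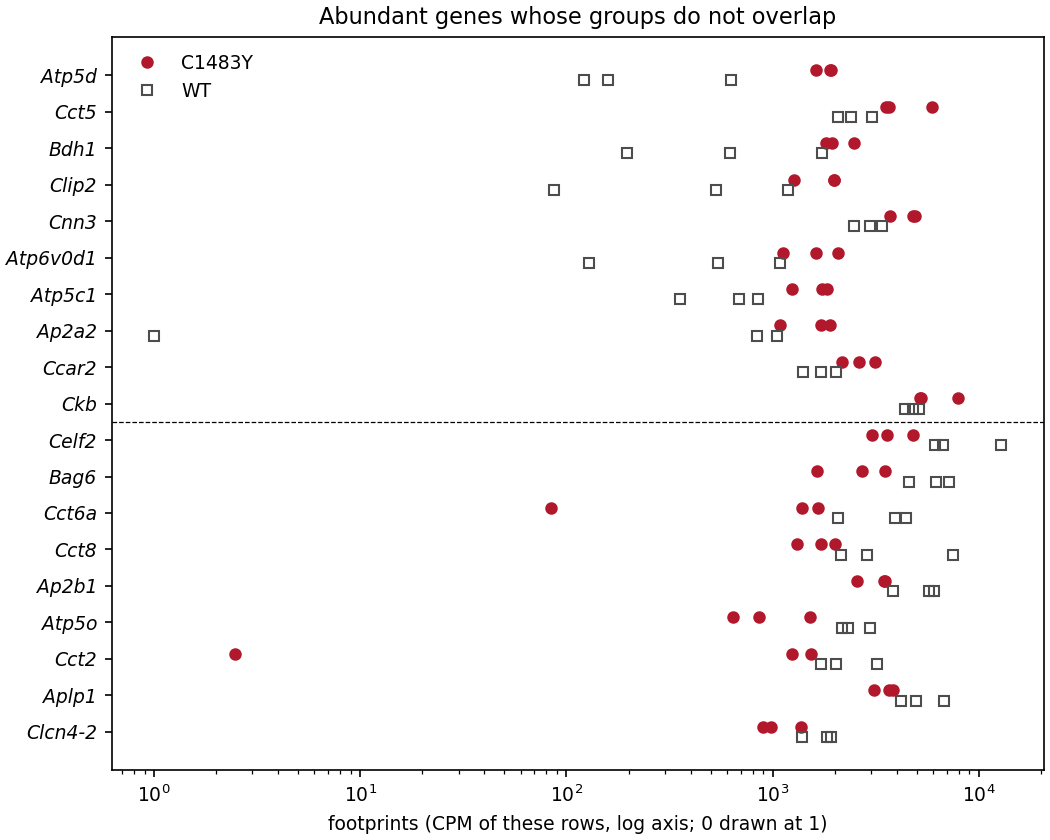
Footprint level in each library (log axis, CPM of these rows; a value of 0 is drawn at 1) for the 19 genes with a mean of at least 1000 CPM and groups that do not overlap, with C1483Y as filled circles and WT as open squares. The 10 genes above the dashed line are higher in C1483Y and the 9 below it are lower, and many of the gaps are small beside the spread within a group.

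Below 1000 CPM, the largest separations came from genes that were at or near 0 in a whole group. Acy1, an aminoacylase that releases amino acids from their acetylated forms, was the only gene at 0 in all WT libraries and at 20 CPM or more in all C1483Y libraries, and none showed the reverse (0 genes). It had 177, 467 and 377 CPM in C1483Y libraries and 0 in WT libraries, at least 207-fold higher when each WT library is set to a floor of 3 counts, or 9 in WT replicate 3 with its steps of 3. Its mRNA was at 96.6, 0 and 0 CPM in C1483Y mRNA libraries, against 347, 231 and 64.0 CPM in WT mRNA libraries. In L2427P footprints Acy1 was at 0, 330 and 95.3 CPM.

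Cdkal1, an enzyme that modifies a lysine tRNA, had 2598, 34.2 and 701 CPM in C1483Y libraries and 0, 0 and 0.445 CPM in WT libraries. It had the smallest unadjusted p of the edgeR fit, 0.0012, and an adjusted p of 0.997. Atp6v0b, a membrane subunit of the vacuolar proton pump, had 706, 436 and 205 CPM in C1483Y libraries against 0, 1.36 and 3.56 CPM in WT libraries. These 2 genes and Acy1 are the 3 that DESeq2's Wald test called higher, with adjusted p of 3.4e-07 for Cdkal1 and 0.012 for Acy1 and for Atp6v0b. Cdkal1 mRNA was at 178, 0 and 0 CPM in C1483Y and at 0, 138 and 178 CPM in WT.

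In the opposite direction, Crym, a thyroid hormone-binding protein, had 0, 0.518 and 0 CPM in C1483Y libraries, against 151, 815 and 75.2 CPM in WT libraries. 1810009A15Rik had 0, 0 and 0.913 CPM in C1483Y libraries and 407, 445 and 137 CPM in WT libraries. DESeq2 called both lower, with adjusted p of 0.0082 for Crym and 0.0092 for 1810009A15Rik, and edgeR gave each an adjusted p of 0.997. Crym footprints were at 0.780, 7.99 and 114 CPM in L2427P libraries, and its mRNA was at 0, 0 and 0 CPM in C1483Y and at 171, 532 and 0 CPM in WT.

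Ctsf, the lysosomal protease cathepsin F, had 0.677, 145 and 112 CPM in C1483Y libraries and 4348, 499.8 and 281 CPM in WT libraries. Adrm1, a ubiquitin receptor of the proteasome, had 0.226, 371 and 275 CPM in C1483Y libraries and 3019, 1278 and 802 CPM in WT libraries. In both, C1483Y replicate 1 was near 0 and WT replicate 1 was the highest library. Further named genes below 1000 CPM without overlap were Atpaf2, Bdp1 and Bai2, lower, and Chmp2b, Armc6, Ccnb2, Ccna2, Btbd7, Alg10b, Cnpy3 and Abcc5, higher. Not all of them were near 0 in a whole group. WT replicate 3 had 111 CPM for Btbd7, 94.8 CPM for Alg10b and 81.0 CPM for Ccna2, and C1483Y replicate 2 had 67.4 CPM for Bai2.

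Adk encodes adenosine kinase, which converts adenosine to AMP and so sets the level of adenosine in brain. Adk had 339, 519 and 503 CPM in C1483Y libraries, against 0, 111 and 42.3 CPM in WT libraries. Every C1483Y library lay above every WT library, and the L2427P libraries, at 321, 357 and 387 CPM, lay within or near the range of C1483Y. On log2(CPM + 1) the difference was 4.72, with p = 0.1 by a two-sided exact permutation test, the lowest value possible for groups of 3. The edgeR fit gave a log2 fold change of 3.15 (SE 3.67, adjusted p = 0.997). Adk mRNA was at 164, 0 and 0 CPM in C1483Y and at 258, 259 and 0.116 CPM in WT, so its level rested on few libraries.

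Of the 13 tested genes of adenosine and purine metabolism, 2 were higher in C1483Y without overlap and 1 was lower, beside 4.42% and 2.76% over all genes. Adss, which makes the precursor of AMP, had 1635, 207 and 218 CPM in C1483Y libraries against 0.746, 2.27 and 182 CPM in WT libraries. Ampd3, which deaminates AMP, had 0, 0 and 79.5 CPM in C1483Y libraries against 217, 274 and 151 CPM in WT libraries. The median log2 fold change of the list was 0.06.

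The vacuolar proton pump acidifies lysosomes, where the first mTOR complex is activated. Of its 14 tested genes, 2 were higher in C1483Y without overlap, Atp6v0b and Atp6v0d1, and 0 were lower, beside 4.42% and 2.76% of all genes tested. Atp6v0d1, a subunit of the membrane sector, had 1626, 1124 and 2078 CPM in C1483Y libraries, against 129, 541 and 1089 CPM in WT libraries. Summed over the list, footprints were at 13129, 13246 and 12392 CPM in C1483Y and 7007, 11790 and 11194 CPM in WT, which did not overlap. With TMM factors the sums overlapped. The median log2 fold change was 0.33.

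Lysosome and autophagy genes had a median log2 fold change of 0.19. Of 34 tested genes, 3 were higher without overlap (Bnip3l, Ctsa and Chmp2b) and 2 were lower (Atg14 and Ctsf). The shares over all genes tested were 4.42% higher and 2.76% lower. The abundant proteases of that list overlapped. Ctsb, cathepsin B, had 4384, 2318 and 1945 CPM in C1483Y and 2853, 3061 and 2872 CPM in WT.

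Of the mTOR signalling list, 9 genes were tested, and for 0 of them did the groups stay apart, beside 7.18% of all genes tested. Its median log2 fold change was -0.81, with 3 values above 0 and 6 below; among genes of at least 1000 CPM it had 1 member, Cdc42, at 1.06. Akt1, a kinase upstream of mTOR, had 448, 582 and 211 CPM in C1483Y libraries and 1417, 770 and 507 CPM in WT libraries. Akt1s1, the mTOR inhibitor PRAS40, had 0, 130 and 17.4 CPM in C1483Y libraries and 2.24, 538 and 253 CPM in WT libraries. Atf4, a transcription factor whose translation mTOR raises, had 851, 120 and 452 CPM in C1483Y libraries and 102, 262 and 210 CPM in WT libraries.

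RNA-binding proteins and translation regulators control splicing, stability and use of mRNA. Their summed footprints were at 40231, 38888 and 35910 CPM in C1483Y and 43725, 54117 and 50402 CPM in WT, which did not overlap under totals or TMM factors and overlapped under DESeq2's size factors. Of 47 tested members, 2 were lower without overlap (Celf2 and Cnot10) and 3 were higher (Adar, Atxn2l and Cnbp), and 29 had a log2 fold change below 0. Among all genes tested, 2.76% were lower and 4.42% higher without overlap. The median of the list was -0.35, and it ranged from -0.99 to 0.33 over the alternatives. Caprin1, a protein of RNA granules, had 4587, 3861 and 4197 CPM in C1483Y and 590, 7993 and 6380 CPM in WT, so its direction rested on which WT library was read.

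Cell cycle genes summed to 17241, 12923 and 13898 CPM in C1483Y and 12674, 9965 and 11625 CPM in WT, which did not overlap under totals and overlapped under TMM factors. Of 26 tested members, 3 were higher without overlap (4.42% of all genes tested) and 0 were lower (2.76% of all). The median log2 fold change was 1.00, beside 0.12 over all genes tested. Ccna2, a cyclin of DNA replication and mitotic entry, had 2082, 133 and 759 CPM in C1483Y libraries, against 0, 0 and 81.0 CPM in WT libraries. Ccnb2, a mitotic cyclin, had 843, 56.5 and 67.6 CPM in C1483Y libraries against 0, 0 and 0.890 CPM in WT libraries. Ccnb2 mRNA went the other way without overlap, at 0, 0 and 0 CPM in C1483Y and 197, 31.3 and 301 CPM in WT. Ccna2 mRNA overlapped, at 216, 0 and 0 CPM in C1483Y and 446, 132 and 288 CPM in WT. Cdk1, the kinase that drives mitosis, had 916, 347 and 713 CPM in C1483Y libraries against 16.4, 0 and 176 CPM in WT libraries. Cdk4, the most abundant member, overlapped, with 5839, 3162 and 1705 CPM in C1483Y and 1566, 1155 and 2270 CPM in WT. C1483Y replicate 1 was the highest library for Ccna2, Ccnb2, Cdk1 and Cdk4.

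Markers of progenitors, the dividing cells of embryonic cortex, were examined beside these genes. All 6 listed markers had counts, 3 were tested, and their sum was 3970, 2416 and 3080 CPM in C1483Y, against 1772, 1359 and 1379 CPM in WT, which did not overlap under totals or TMM factors and overlapped under DESeq2's size factors. Of the 3 tested, only Cdk1 had groups that did not overlap, and it stands in both lists. Ccnd2, a cyclin of cortical progenitors, overlapped, with 1956, 1416 and 1960 CPM in C1483Y and 1672, 1258 and 891 CPM in WT. The part of progenitor RNA in the values of the cell cycle genes was not tested, and in sorted bulk cells more cells of a type and more RNA per cell cannot be told apart.

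The neuronal identity of the sorted cells was visible in both groups. All 12 neuron markers had counts, and their sum was 40373, 62879 and 48463 CPM in C1483Y and 66686, 64809 and 50263 CPM in WT, with overlap. Cntn2, an adhesion protein of axons, was the most abundant, with 14004, 18284 and 19247 CPM in C1483Y and 20765, 28802 and 18877 CPM in WT. Its log2 fold change was -0.41 (SE 0.22). The 17 tested transcription factors of cortical neurons had a median log2 fold change of -0.01, and 0 had groups that stayed apart (7.18% of all genes tested did).

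Other cell types contributed less, and the sums of their markers overlapped between groups. Astrocyte markers summed to 4979, 7062 and 11776 CPM in C1483Y and 11817, 5048 and 5721 CPM in WT. For 8 microglia markers, of which 7 had counts, the sums were 1059, 881 and 1193 CPM in C1483Y and 1190, 789 and 998 CPM in WT. Oligodendrocyte markers reached at most 293 CPM in C1483Y and 270 CPM in WT, and erythroid markers 968 CPM in C1483Y and 638 CPM in WT. Markers of endothelium and mural cells reached 953 CPM in C1483Y replicate 3 and 255 CPM in WT replicate 3.

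Across 23 pathway lists, the summed footprints scaled by totals stayed apart for 3. The vacuolar proton pump and the cell cycle were higher in C1483Y, and RNA and translation regulators were lower. For the other 20 the sums of C1483Y and WT overlapped. With DESeq2's size factors those 3 overlapped too, and with TMM factors the proton pump and the cell cycle did. Labels given at random would separate a sum, like a gene, with a probability of 0.1. Ion pumps had 15 tested genes, of which 12 had a log2 fold change below 0 (median -0.49), with 0 genes whose groups stayed apart. Chromatin regulators had 46 tested genes, a median of 0.03 and 1 gene lower without overlap, Brd7. Adhesion and axon guidance genes, with 37 tested, had a median of 0.05, with Cntn1 higher and Aplp1 lower without overlap. Beside these counts, 4.42% of all genes tested were higher and 2.76% lower without overlap, 7.18% in all.

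**Figure D5:**
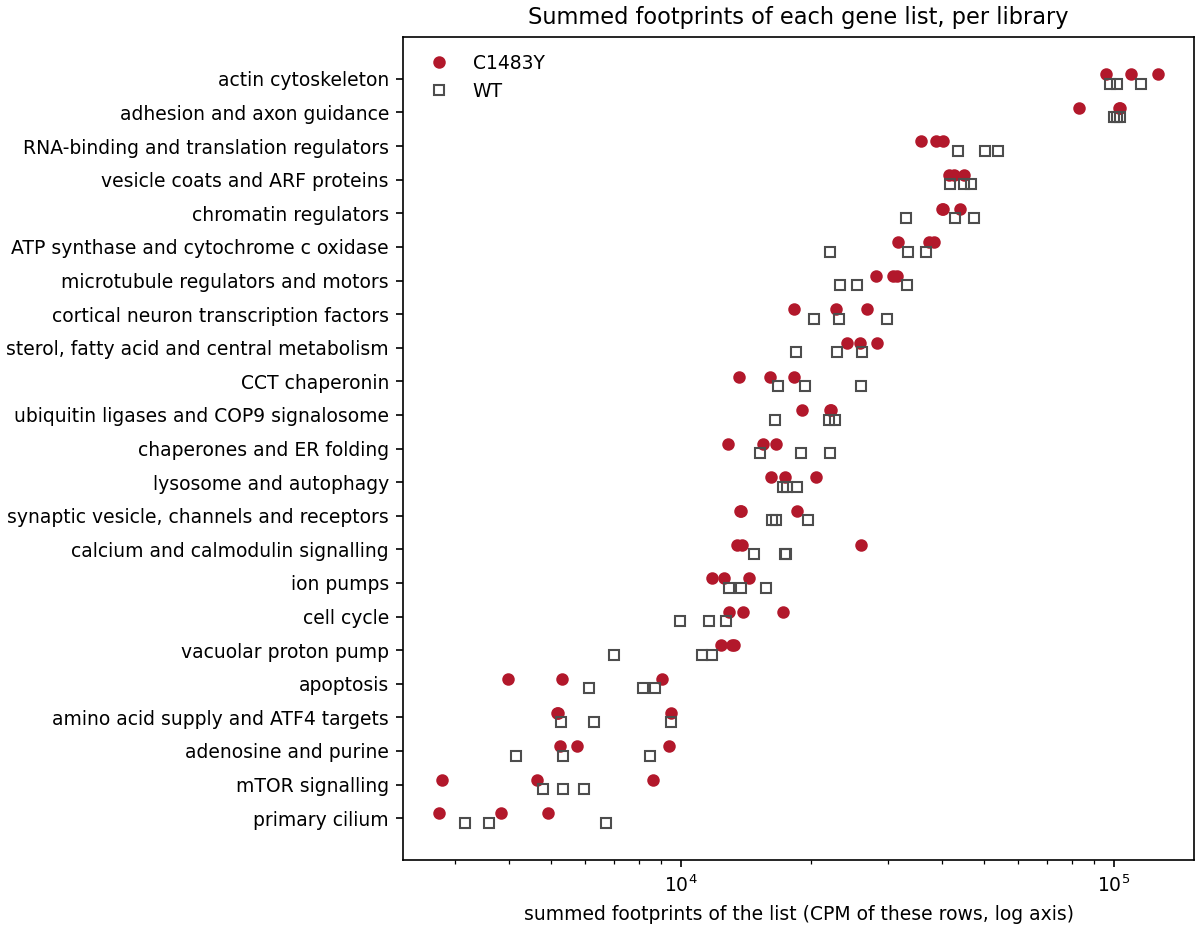
Summed footprint level of each of 23 gene lists in each library (log axis, CPM of these rows), with C1483Y as filled circles and WT as open squares, ordered by the WT mean. C1483Y lies above WT without overlap for the vacuolar proton pump and the cell cycle and below it for RNA-binding and translation regulators. The sums of the other 20 lists overlap. With DESeq2's size factors in place of totals, the sums of the lists named here overlap as well.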

How the data were processed

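For 17 libraries the deposited values are whole-number read counts per gene. Those deposited for C1483Y replicate 3 of the footprints include 28 in these rows that are not whole; the authors' values of that library are therefore taken as estimated counts, by a step that no label records, and were rounded. Per the labels' protocols, footprints were made with RNase I and a size-exclusion column, mRNA was fragmented by heat, and no molecular identifier is mentioned, so floors cover counting error only. Bowtie 1.1.2, TopHat2 2.1.1, HTSeq and mm10 are named in the submitters' processing notes; the sources used here give no annotation or strand setting, so overlapping and near-identical genes are uncertain. The 27 date-like names lie below Cyb5rl. Summary lines were left out; they were empty in C1483Y replicate 1, and elsewhere reads outside genes made up 4.35% to 14.7% of counts and reads not aligned uniquely 9.06% to 29.6%.

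Counts were scaled by each library's total over the 5400 genes. Genes passing filterByExpr (minimum count 10) were tested with edgeR 4.0.16 (R 4.3.3), a two-sided quasi-likelihood test with Benjamini-Hochberg adjustment at 0.05, tested on simulated data beforehand. DESeq2 1.42.0 and limma 3.58.1 were alternatives. Adk was also compared by an exact permutation test with a pseudocount of 1. Named genes were Adk, the 12 genes a direction of smallest p with at least 50 CPM and no overlap, the 10 most abundant, genes at 0 in a group, and up to 3 abundant and 2 a direction of smallest p from each list. A gene that the naming rule gives is not reported here. Members and lists were chosen with earlier results of these data known.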

Additional observations from a re-analysis of the deposited data

How the results depend on the processing

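DESeq2's Wald test gave 6 calls, 3 higher and 3 lower in C1483Y, against 0 in edgeR; the cause was not tested. Every other alternative run gave 0 calls at an adjusted p under 0.05: TMM factors, DESeq2's size factors, limma-trend, both other filters, WT replicate 3 divided by 3 and C1483Y replicate 3 by 4, all 9 footprint libraries, the last 300 rows left out, all rows without C1483Y replicate 3, both libraries of multiples left out, and genes of at least 1000 CPM alone. For the run on all rows, calls were counted only among its 1585 tested genes up to Cyb5rl, of 7727 tested. Leaving out each library in turn gave 0 calls each time. The replicate block gave 0 calls, with 11 at an unadjusted p under 0.05 against 12 without it. Same-numbered libraries had correlations of their deviations of 0.066, 0.034 and 0.0097, so the numbers were not taken to pair the samples. With the replicate block the Adk difference was 4.72, with p = 0.25 in an exact sign-flip test, the lowest value possible for 3 pairs. Across its other alternatives the Adk difference was 2.68 to 6.09, the lowest without WT replicate 1. TMM factors moved the median of all genes by -0.08 and DESeq2's size factors by -0.15 (log2); leaving out C1483Y replicate 1 moved it by 0.58 and leaving out WT replicate 1 by -0.54, beyond the 0.12 over all genes that list medians are read against. Of 25 list medians, 21 changed sign under some alternative, and those of the CCT chaperonin, cell cycle, ion pumps and sterol, fatty acid and central metabolism kept it. Of the 10 abundant genes that were higher without overlap, 6 remained with TMM factors and 3 with DESeq2's size factors, and of the 9 that were lower, 8 and 4 remained. Without both libraries of multiples, non-overlap counts were 226 higher and 147 lower, and among abundant genes 31 and 33; with fewer libraries overlap is rarer by construction. Leaving out 1 library gave 92 to 179 higher and 64 to 135 lower, and among abundant genes 15 to 24 and 17 to 25. Random labels separate such smaller groups with a probability above 0.1, so none of these counts is read as a result.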

Other observations

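The precision of these libraries limits most genes. Of the tested genes, 721 of 1379 (52.3%) had a 0 in at least 1 library, and the median standard error of a log2 fold change was 3.22, so differences of several-fold were not detectable for most of them. Only 31 genes had a standard error under 0.5. The 10 most abundant genes include 2310014L17Rik, at 9191, 3105 and 16954 CPM in C1483Y libraries and 2447, 7365 and 13541 CPM in WT libraries, and at 25.4 CPM in L2427P replicate 1 against 8477 and 12615 CPM in the other L2427P libraries.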
